A study of Arabidopsis thaliana with 12 samples.

Results

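Among transcripts that are abundant in mature Arabidopsis thaliana seed, 16 probe sets were much lower in seed that had matured at 10 °C than in every group of seed that had matured at 20 °C. They were chosen by a rule on the log2 of the deposited array signal. The mean of the 9 arrays at 20 °C had to be 8 or more, the mean of the 3 arrays at 10 °C had to lie at least 1.5 below the mean of each of the 3 groups at 20 °C, and each 10 °C array had to lie below all 9 others. Of 22746 probe sets on the array that are not controls, 2863 reached that level and 19 met all 3 conditions. Plastid-encoded genes took 2 of the 19 and the linker histone gene HIS1-3 took 1, and these were left out. Of the 16 members, 5 carry exactly 1 gene in the platform annotation, AT1G68240, AT5G03380, AT5G07340, AT1G13340 and AT3G15590. The probe set 264365_s_at is assigned to several genes and is given by its identifier. The other 10 are unnamed here, so whether they include a gene of a kind that was left out could not be checked.

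The RNA came from seed collected from opened siliques and was hybridised to 12 Affymetrix ATH1 arrays, 3 in each of 4 groups. Wild-type plants of the accession Landsberg erecta (Ler) were raised at 20 °C with 16 h of light until they flowered and then kept at 10 °C with the same light until the seed was mature. Plants labelled ft-1, a mutant in the Ler background altered in a gene that promotes flowering, stayed at 20 °C with 16 h of light throughout. Wild-type Ler was also kept at 20 °C throughout with 8 h of light, and at 20 °C with 16 h of light. The ft-1 arrays have Glabra as their source name although title and genotype give ft-1, and the gene behind the label was not analysed here. The labels do not say whether the numbered samples of a group are separate harvests, so the p-values below measure a spread that may be technical.

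A dry Arabidopsis seed holds an embryo, a single layer of endosperm and a dead seed coat, and it carries messenger RNA that was made during maturation. The temperature that the mother plant meets while seeds ripen is a known influence on how dormant the seed becomes, and cool conditions are known to deepen dormancy in this species. The 5 members with a name act in unlike places in the cell, as far as their families are known. AT1G68240 belongs to the basic helix-loop-helix (bHLH) transcription factors, AT5G07340 encodes a calnexin, a lectin chaperone that holds newly made glycoproteins in the endoplasmic reticulum, and AT5G03380 encodes a protein with a heavy-metal-associated domain. AT1G13340 belongs to a family that regulates the ATPase Vps4 in the sorting of cargo into multivesicular bodies. AT3G15590 belongs to the pentatricopeptide repeat proteins, which bind organelle RNA. These family names are background, since the annotation used here gives only locus identifiers for them.

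Storage protein and oleosin transcripts, the most typical messages of a ripe embryo, were abundant on all arrays of the labelled tissue. Of 18 genes on that list, 6 were named on the array, so the values below cover only part of it. Those 6 probe sets had means of 10.6 to 13.7 (log2) at 10 °C and 10.2 to 13.0 in Ler at 20 °C in long days. Against those long-day seeds 5 of the 6 rose at 10 °C and 0 fell (limma, adjusted p under 0.05, median difference 0.60), but 0 of the 6 passed after quantile normalization (median 0.07) or with scaling on hybridisation controls (median -0.08). Of all probe sets tested, 11.3% rose and 20.5% fell as deposited. These shares were 12.8% and 15.3% after quantile normalization, and 2.06% and 50.6% with scaling on hybridisation controls. Their summed linear signal was 48727 to 51851 at 10 °C, 29715 to 36627 in ft-1 seed, 36501 to 41111 in Ler short-day seed and 28524 to 36097 in Ler long-day seed. Summed signals ran from 3564490 to 4398240 over the 12 arrays, with the 3 highest sums on the 10 °C arrays. The poly-A controls, bacterial RNAs spiked in ahead of labelling, averaged 8.57 ± 0.395 (log2, SD, n = 3) at 10 °C, 6.54 ± 1.18 in ft-1, 7.71 ± 0.0327 in Ler short days and 6.82 ± 0.268 in Ler long days. In ft-1 array 2 they stood at 7.87, and in the other ft-1 arrays at 5.65 and 6.09. The 2 pairs of GAPDH control probe sets, whose 3' minus 5' difference is a sign of RNA integrity, moved in opposite directions between 10 °C and Ler long days. The older pair stood at 1.52 ± 0.241 at 10 °C and 0.463 ± 0.269 in Ler long days, and the redesigned pair at 0.0110 ± 0.125 and 0.372 ± 0.0829 (log2, SD, n = 3 each). In ft-1 and Ler short days the older pair stood at 0.955 ± 0.131 and 1.04 ± 0.559, and the redesigned pair at 0.393 ± 0.182 and 0.358 ± 0.384. The older pair overlapped between temperatures, with 1.65 on short-day array 1 and 1.32 on 10 °C array 2. The poly-A level was entered as a covariate in an alternative fit given below, which extrapolates between temperatures. Beyond that fit, the part of these control levels in the results below was not tested. In whole seed, fewer cells of a type and less RNA per cell cannot be told apart.

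**Figure D1:**
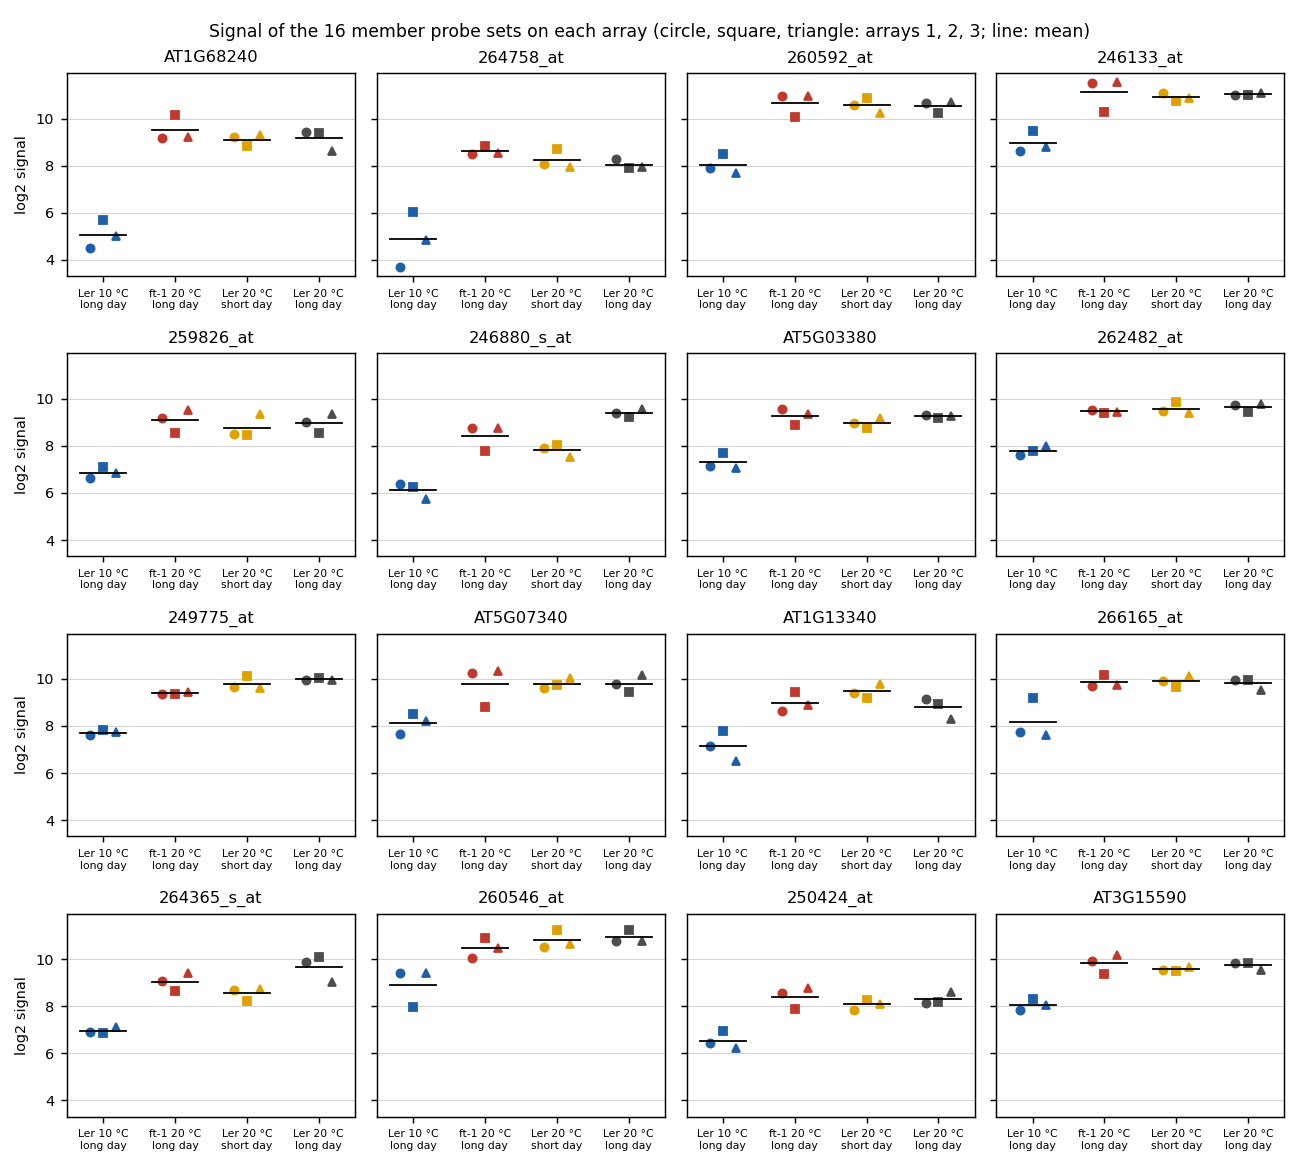
Log2 signal of each of the 16 members on each of the 12 arrays, with 1 panel per member ordered by the size of the drop, groups along the horizontal axis, symbols for arrays 1, 2 and 3, and a line at the group mean. In every panel the 3 arrays at 10 °C lie below all 9 at 20 °C, as the rule required, with the narrowest gap for AT5G07340 (0.28).

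The bHLH gene AT1G68240 had the deepest drop of the 16. Its log2 signals were 4.51, 5.69 and 5.02 on the 10 °C arrays, against 9.16, 10.14 and 9.22 in ft-1 seed, 9.21, 8.82 and 9.29 in Ler short-day seed and 9.44, 9.40 and 8.64 in Ler long-day seed. The highest 10 °C array thus lay 2.95 below the lowest of the 9 others, while those 9 spanned 1.49. As geometric means on the linear scale, the signal was 33.7 at 10 °C and 572 in Ler long-day seed at 20 °C. Against all 9 arrays it was 18.2 times lower. The median signals of the 10 °C arrays were 4.08, 4.22 and 4.01, and no detection call was used. The ratio thus compares listed signals that may be near background at 10 °C. The differences were -4.43 from ft-1, -4.03 from Ler short days and -4.09 from Ler long days (standard error, SE, 0.33 each, limma). Like all differences between 10 °C and 20 °C below, these values chose the members, so they are a description and carry no test.

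AT5G03380, the gene with a heavy-metal-associated domain, was 3.65 times lower. Its log2 signals were 7.12, 7.69 and 7.07 at 10 °C, against 9.56, 8.88 and 9.37 in ft-1 seed, 8.96, 8.75 and 9.19 in Ler short-day seed and 9.31, 9.17 and 9.28 in Ler long-day seed. The arrays at 20 °C lay close together, within 0.82 of each other. The differences at 10 °C were -1.98, -1.67 and -1.96 (SE 0.22 each) from ft-1, Ler short days and Ler long days.

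The calnexin gene AT5G07340 was 3.16 times lower, with the narrowest separation of the 16. Its signals were 7.67, 8.52 and 8.19 at 10 °C, against 10.24, 8.81 and 10.32 in ft-1 seed, 9.61, 9.73 and 10.04 in Ler short-day seed and 9.79, 9.43 and 10.15 in Ler long-day seed. The nearest approach was between 10 °C array 2 and ft-1 array 2, and without that ft-1 array the lowest value at 20 °C is 9.43. The difference was -1.66 (SE 0.34) from each of the 3 groups. With the poly-A level of each array as a covariate, the difference was -0.36 (SE 0.28) from Ler long days, -1.02 (SE 0.21) from Ler short days and -0.15 (SE 0.31) from ft-1. Poly-A levels did not overlap between temperatures (lowest 8.12 at 10 °C, highest 7.87 at 20 °C), so these values are extrapolated. The covariate did not shrink every member's drop: that of 260546_at from Ler long days went from -2.01 to -2.92.

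AT1G13340, from the family that regulates Vps4, was 3.82 times lower. It had 7.15, 7.78 and 6.52 at 10 °C, against 8.63, 9.45 and 8.87 in ft-1 seed, 9.41, 9.21 and 9.77 in Ler short-day seed and 9.14, 8.95 and 8.31 in Ler long-day seed. Both temperatures varied by more than 1 log2 unit, and the gap between them was 0.53. The differences were -1.83, -2.31 and -1.65 (SE 0.31 each) from ft-1, Ler short days and Ler long days.

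The pentatricopeptide repeat gene AT3G15590 was the member closest to the limit of the rule and was 3.12 times lower. It had 7.82, 8.30 and 8.06 at 10 °C, against 9.90, 9.38 and 10.16 in ft-1 seed, 9.54, 9.50 and 9.66 in Ler short-day seed and 9.84, 9.81 and 9.53 in Ler long-day seed. The arrays were close within each temperature, with a gap of 1.08 between them. The differences were -1.75, -1.51 and -1.67 (SE 0.20 each).

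Among the members without a single gene, the listed signal of 264758_at was 10.8 times lower at 10 °C, that of 260592_at 5.87 times, 246880_s_at 5.38 times and 264365_s_at, with several genes, 4.37 times. The signals of 264758_at were 3.70, 6.05 and 4.85 at 10 °C, against 8.49, 8.85 and 8.52 in ft-1 seed, 8.07, 8.69 and 7.95 in Ler short-day seed and 8.30, 7.90 and 7.95 in Ler long-day seed, so that the 3 arrays at 10 °C were spread more widely (2.35) than the 9 at 20 °C (0.95). Cool array 1 lay below the median signal of its array (4.08), and as no detection call was used, the ratio for this probe set compares listed signals that may be at background at 10 °C. The probe set 260592_at had 7.90, 8.50 and 7.70 at 10 °C, against 10.95, 10.07 and 10.94 in ft-1 seed, 10.57, 10.88 and 10.24 in Ler short-day seed and 10.65, 10.24 and 10.71 in Ler long-day seed. It kept a clear signal in the cool seed, as did 246133_at (mean 8.96 at 10 °C) and 260546_at (8.92). The remaining unnamed members were 3.21 to 4.23 times lower. Over all 16 the median difference between 10 °C and the 9 arrays at 20 °C was -1.97, and 8 members were at least 4 times lower.

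**Figure D2:**
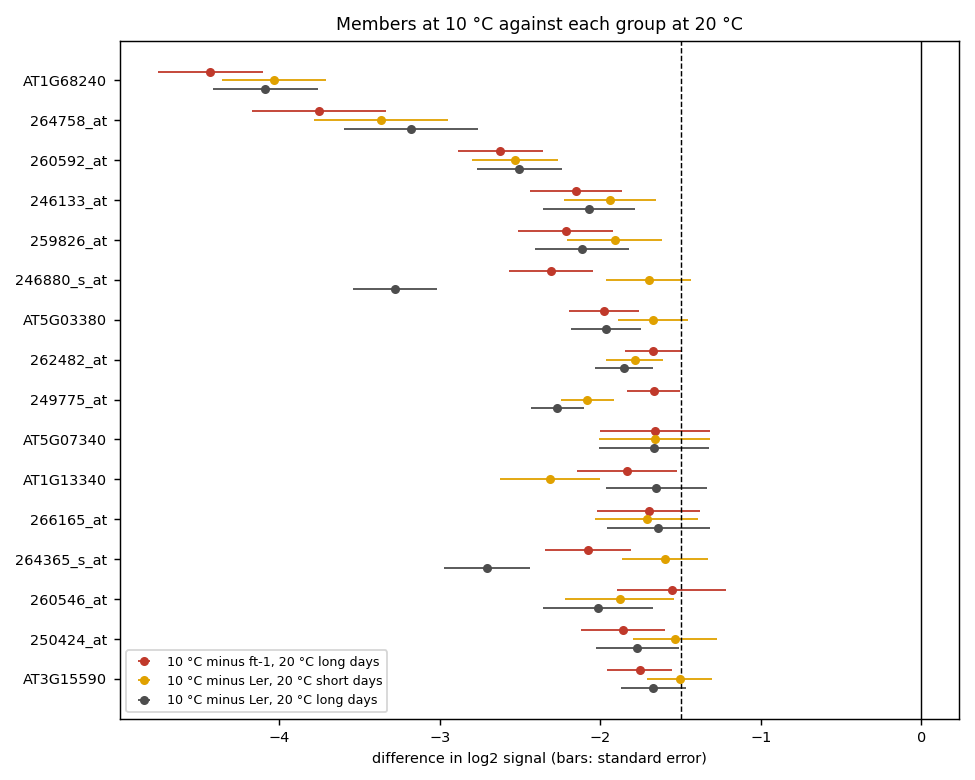
Difference in log2 signal between seed matured at 10 °C and each of the 3 groups at 20 °C for the 16 members, with bars of 1 standard error and a dashed line at the -1.5 the rule asked for. AT1G68240 (-4.43 to -4.03) and 264758_at (-3.75 to -3.18) stand apart, and 246880_s_at differs most among the 3 comparisons (-3.28 to -1.70).

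The members did not all behave alike on single arrays. Of the 3 cool arrays, array 2 was the highest for 12 of the 16 members, by as much as 1.77 over the mean of the other 2 for 264758_at and 1.51 for 266165_at. The probe set 260546_at went the other way, with 7.94 on array 2 and 9.41 and 9.40 on arrays 1 and 3. Array 2 had the lowest poly-A level of the 3, 8.12, against 8.85 and 8.76. It also had the highest median over all non-control probe sets, 4.22, against 4.08 and 4.01. The share of all probe sets that were highest on array 2 was not counted, so 12 of 16 is not shown to be particular to the members. Without cool array 2, 45 probe sets met the rule, of which 15 were among the 16. The exception was 260546_at, whose smallest drop was then 1.07.

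A second split appeared within the ft-1 seed. On ft-1 array 2, 11 members were lower than on both other ft-1 arrays, with AT5G07340 (-1.47 from the mean of those 2), 246133_at (-1.25) and 246880_s_at (-0.95) farthest down. The other 5 members were higher there than on both other ft-1 arrays. AT1G68240 stood 0.95 above the mean of those 2 arrays, AT1G13340 0.70, 260546_at 0.65, 266165_at 0.44 and 264758_at 0.34. The median over all non-control probe sets was lowest on ft-1 array 2 as well, 3.84, against 4.03 and 4.11 on the other ft-1 arrays. How many of all probe sets were lowest or highest there was not counted, so the split is not shown to be particular to the members. The poly-A level of ft-1 array 2 was also the highest of the ft-1 arrays, as given above. Without this array, 24 probe sets met the rule, 15 of them members.

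The rule does not set the direction of differences among the 3 groups at 20 °C, but it is not independent of them. A probe set that was low in short-day or in ft-1 seed was less able to lie 1.5 below that group at 10 °C, so the counts and medians of the members in these comparisons are conditioned by the choice of members and are given as a description. The comparisons were fitted with limma over 13648 probe sets (adjusted p under 0.05 by the Benjamini-Hochberg method). In short-day against long-day Ler seed, 1 of the 16 members passed, and it fell. That is 6.25% of the members, where 1.06% of all probe sets tested passed with a fall. The member was 246880_s_at, with 7.89, 8.04 and 7.54 in short-day seed, against 9.40, 9.23 and 9.57 in long-day seed, a difference of -1.58 (SE 0.26, limma adjusted p = 0.0074). All 3 short-day arrays lay below all 3 long-day arrays, and ft-1 seed had 8.75, 7.80 and 8.75, with a mean between the 2. Without short-day array 3 the adjusted p was 0.052.

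The probe set with several genes, 264365_s_at, had a like order of groups. It had 8.68, 8.24 and 8.75 in short-day seed, against 9.87, 10.09 and 9.04 in long-day seed, again without overlap. Its difference of -1.11 (SE 0.27) missed the threshold with a limma adjusted p of 0.0501, and it passed under 7 of 12 other ways of processing. Its 10 °C signals were 6.91, 6.86 and 7.11. For 246880_s_at, which passed, lowered only by the cool is thus not an exact description, since its signal was also lower in warm short-day than in warm long-day seed. This probe set and 264365_s_at were the 2 of 16 members with every short-day array below every long-day array, which held for 17.8% of all probe sets tested, so the members' share was no higher than the general one.

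The other 14 members did not pass in that comparison, and their differences ran from -0.29 (AT5G03380, SE 0.22) to 0.66 (AT1G13340, SE 0.31). AT1G68240 differed by -0.05, with a 95% interval of -0.75 to 0.64. For AT5G07340 the interval was -0.73 to 0.73 around 0.00, and for AT3G15590 it was -0.60 to 0.27 around -0.16. AT1G13340 was the 1 member with every short-day array above every long-day array, which held for 12.5% of all probe sets tested, and its limma adjusted p was 0.29. The intervals of AT1G68240 and AT5G07340 thus leave room for a shift of about 0.7 in either direction. The median over the 16 was -0.13, and over all probe sets tested -0.06.

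In ft-1 against Ler seed in long days, 0 of 16 members passed (limma, 3 at an unadjusted p under 0.05), where 0.388% of all probe sets tested passed and 12.3% had an unadjusted p under 0.05. The lowest differences were those of 246880_s_at (-0.97, SE 0.26, limma adjusted p = 0.13), 264365_s_at (-0.63, SE 0.27, adjusted p = 0.36) and 249775_at (-0.60, SE 0.17, adjusted p = 0.14). The last had 9.37, 9.35 and 9.45 in ft-1 seed, against 9.96, 10.04 and 9.97 in Ler long-day seed, with very little spread in either group and no overlap. It was 1 of 2 members with every ft-1 array below every Ler long-day array, the other being 246880_s_at, and 10.2% of all probe sets tested were so ordered. AT1G68240 differed by 0.34 (SE 0.33), and its interval ran from -0.35 to 1.04. The median over the 16 was 0.07, and over all probe sets tested -0.06.

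In ft-1 long-day seed against Ler short-day seed, again 0 of 16 members passed (limma, 2 at an unadjusted p under 0.05), where 0.176% of all probe sets tested passed and 6.61% had an unadjusted p under 0.05. The differences ran from -0.48 for AT1G13340 (SE 0.31) to 0.61 for 246880_s_at (SE 0.26, limma adjusted p = 0.70), with a median of 0.23 and a median over all probe sets tested of 0.01. These 3 comparisons reuse the same 9 arrays and are not independent of each other.

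**Figure D3:**
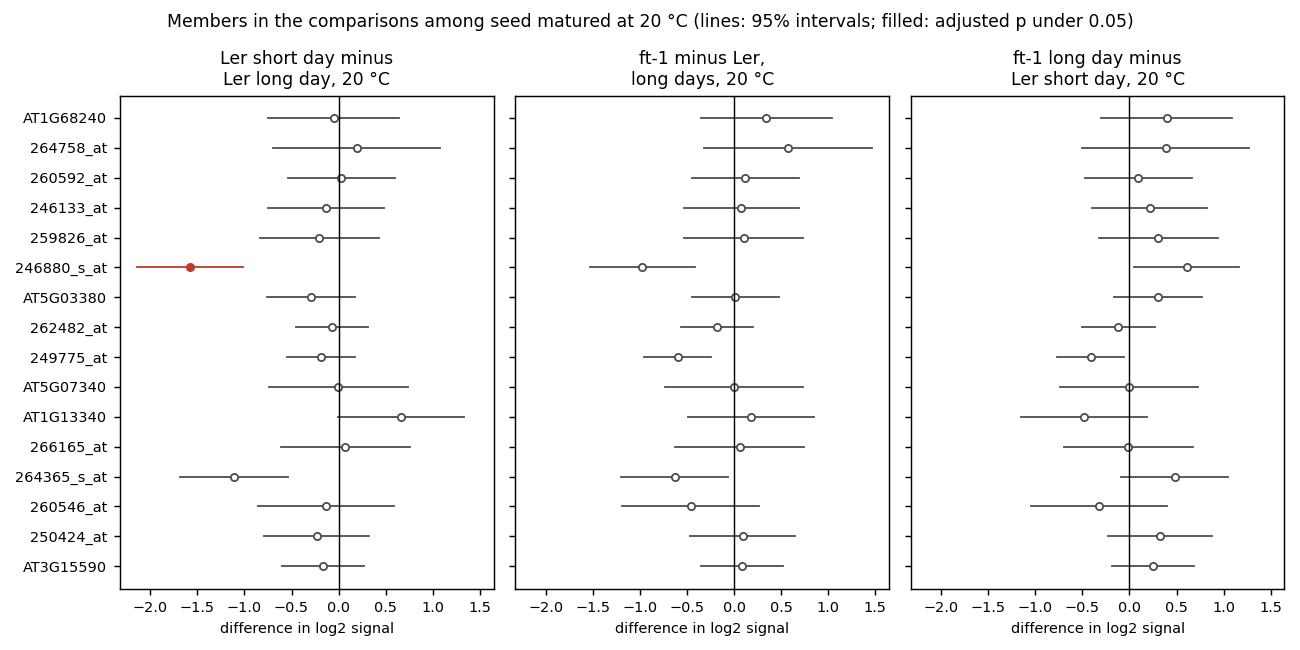
Difference in log2 signal for the 16 members in the 3 comparisons among groups that matured at 20 °C, with 95% intervals and filled points where the adjusted p was under 0.05. Only 246880_s_at in short-day against long-day Ler seed (-1.58) has a filled point.

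The rule's limits cut through a continuous range. Just inside the limit of 1.5 lay AT3G15590 (smallest drop 1.51), 250424_at (1.53) and 260546_at (1.56), and just outside lay 250080_at (1.49), 253702_at (1.48) and 251989_at (1.46). The dimmest members at 20 °C were 250424_at (8.26) and 264758_at (8.30), and the nearest below the level limit were AT1G09500 (7.90) and 264709_at (7.87). A further 5 probe sets had the level and the drop but overlapped between temperatures by 0.25 to 0.95. Without the level limit, 244 probe sets met the other 2 conditions, and 225 of them were dimmer than 8 at 20 °C. Most probe sets on the array are that dim in any case, since 2863 of 22746 reached the level. Of the 2863 brighter ones, 99 lay 1.5 or more below Ler long days at 10 °C, 52 below ft-1 and 33 below Ler short days, and 24 below all 3, so the short-day group set the tightest bound.

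**Figure D4:**
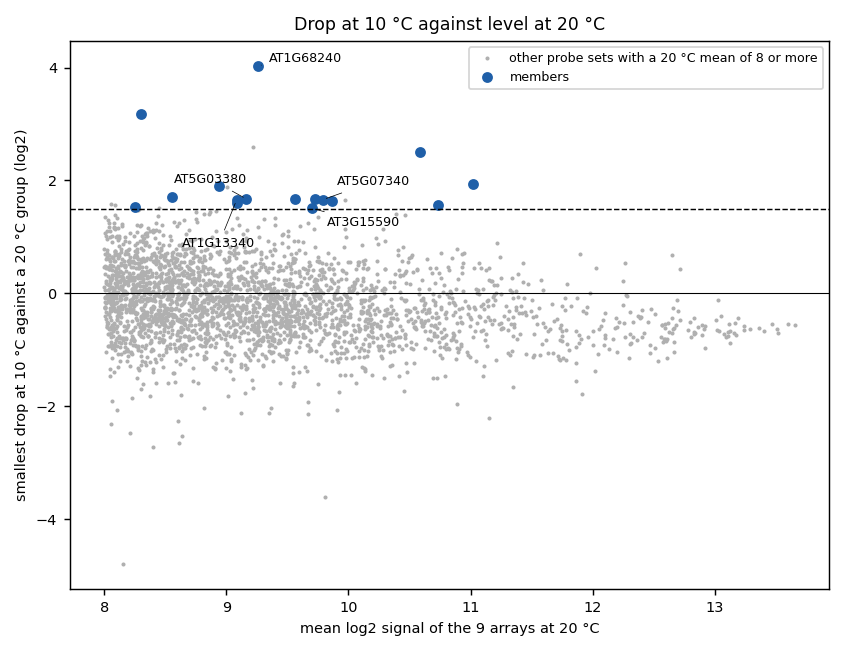
Smallest of the 3 drops at 10 °C (log2, against ft-1, Ler short-day and Ler long-day seed) against the mean log2 signal of the 9 arrays at 20 °C, for all 2863 probe sets with a mean of 8 or more, with the 16 members in blue and the limit of 1.5 dashed. Grey points above the line either overlap between temperatures or were left out by the rule, and no member has a level above 11.02.

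The families of the named members were looked at as far as the annotation names them, in seed at 10 °C against Ler long-day seed at 20 °C, where 11.3% of all probe sets tested rose and 20.5% fell (limma, adjusted p under 0.05). With scaling on hybridisation controls these shares were 2.06% and 50.6%, so directions here are relative to the deposited scaling. The median difference of the members in this comparison was -2.04 and that of all probe sets tested -0.16, a gap of -1.88, and with scaling on hybridisation controls they were -2.73 and -0.85. Of 4 other bHLH genes tested, 0 rose and 0 fell (limma; 1 was at an unadjusted p under 0.05). The largest difference was that of bHLH121, with a mean of 8.10 at 10 °C and 8.66 in Ler long-day seed (-0.55, SE 0.24, limma adjusted p = 0.089), which fell with scaling on hybridisation controls (-1.24, limma adjusted p = 0.00082). The list's median was 0.12, beside -0.16 over all probe sets. Of 8 genes with VPS symbols, most of which act in the same multivesicular sorting route as Vps4, 2 rose and 1 fell, with a median of 0.05. VPS46.2 averaged 10.1 at 10 °C and 8.96 in Ler long-day seed (1.16, SE 0.23, limma adjusted p = 0.0030), VPS60.2 also rose (0.70, SE 0.24), and VPS24.1 fell (-0.69, SE 0.24). With scaling on hybridisation controls 0 of the 8 rose and 4 fell: VPS46.2 (0.47) and VPS60.2 (0.02) no longer passed, and VPS20.1 (-1.12), VPS60.1 (-0.88) and VPS22 (-0.72) fell beside VPS24.1 (-1.38). VPS60.2 did not pass after centring on the array median, and VPS24.1 (-0.40) did not pass after quantile normalization. CRT1b, a calreticulin gene and so from the same chaperone cycle as calnexin, differed by 0.21 (SE 0.38), and the pentatricopeptide repeat genes PPR596 and PPR336 by -0.16 (SE 0.23) and 0.34 (SE 0.34), none past the test, although PPR596 passed with scaling on hybridisation controls (-0.84, limma adjusted p = 0.030). The VPS, calreticulin and repeat genes were picked for their kinship once the members were known. The members had to reach a mean of 8 at 20 °C. Of the relatives, 1 of the 4 bHLH genes, 3 of the 8 VPS genes and 0 of the others did, so levels were not matched.

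The gene lists could not show what kinds of gene the members are, because 10 members have no gene name and the family lists go by symbols that the 5 named members lack, AT1G68240 and the bHLH list included. Of 6 green tissue genes tested out of 16 listed, 2 rose and 2 fell at 10 °C, with differences from -1.98 for RCA to 1.74 for PSBW and a median of 0.03. RCA did not pass after quantile normalization (-1.75, limma adjusted p = 0.052). Their summed linear signal was 1077 to 1228 at 10 °C, 641 to 890 in ft-1 seed, 837 to 979.6 in Ler short-day seed and 820.2 to 1302 in Ler long-day seed. Of 2 pollen genes tested out of 3 listed, AT3G07820 rose (3.14, SE 0.64). Its mean in Ler long-day seed was 3.48, below the median signals of those arrays (4.05, 4.25 and 4.13), so it may be at background there. TUA1 fell as deposited (-0.67, SE 0.22) but did not pass after quantile normalization (-0.34) or centring on the array median (-0.63). The summed signal of the 3 pollen genes was 169 to 208 at 10 °C, 115 to 351 in ft-1 seed, 214 to 257 in Ler short-day seed and 127 to 164 in Ler long-day seed. Of 5 seed coat genes listed, 2 were named on the array and neither was bright enough for a test, with a summed signal of 23.3 to 34.7 at 10 °C, 2.12 to 12.3 in ft-1 seed, 6.27 to 12.6 in Ler short-day seed and 10.3 to 23.7 in Ler long-day seed. The part of these tissues in the members' drop was not tested.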

How the data were processed

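Seed RNA on 12 ATH1 arrays was summarised by the authors into MAS5 signals with GCOS; the submitters' processing notes name both without versions. The authors deposited linear intensities, 1 per probe set and array, and the mean of each column without its lowest and highest 2% lies at 100. Such scaling hides a change in total messenger RNA per seed. Detection calls were not used here. Here log2 was taken of the deposited intensities without rescaling. Genes were named from the platform annotation, with symbols updated by gene identifier to TAIR10.1. That table gives 1 gene to 13513 probe sets, several to 503 and none to 8730. No coordinates are printed because no source used here names the build of the probe annotation.

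Tests used limma (version 3.58.1, under R 4.3.3), with 1 coefficient per group over all 12 arrays, an intensity trend in the variance prior, and Benjamini-Hochberg adjustment within each comparison over the 13648 probe sets at or above the 40th percentile of mean log2 signal (2.88). The number of arrays limits the precision. The replicate numbers do not pair the samples (correlations of same-numbered deviations of -0.12 to 0.14 over the 3 comparisons).

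The members, lists and comparisons were chosen with earlier results of these data known. The rule for names took every member with exactly 1 gene, and the other members are given by probe set. Of 29 gene lists, 22 had a tested gene, and only those that bear on a member or a tissue are reported. Promoter motifs were not analysed here. Alternatives were other scalings, filters, array weights, log2 of the signal plus 16, a flat variance prior, fewer arrays, a replicate block and each array left out. Scaling on 18 hybridisation controls and the mean of 24 poly-A controls as a covariate in the tests, and a fit of the 9 arrays at 20 °C, were added after the data were seen.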

Additional observations from a re-analysis of the deposited data

How the results depend on the processing

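All 16 members stayed lower at 10 °C than in Ler long-day seed under every scaling and with each array left out. Much of this was fixed by the choice of members. The rule placed each 10 °C array below all 9 others, so leaving out an array could not change the sign. Scaling on hybridisation controls could only deepen the drop, since these controls averaged 10.0 at 10 °C and 9.32 in Ler long days. The median difference from 20 °C of -1.97 was -2.54 with scaling on hybridisation controls. With each array's poly-A level in the model it was -1.73, and the members ran from -4.71 to -0.51. That model extrapolates, since poly-A levels did not overlap between temperatures. With arrays left out the median difference lay between -2.13 and -1.94. The number of probe sets meeting the rule was 10 after quantile normalization, all of them members, 103 with scaling on hybridisation controls, which included all 16, and 12 to 45 with 1 array left out. In short-day against long-day seed 2 members passed in place of 1 (246880_s_at and 264365_s_at) after quantile normalization, with no filter, with the filter at the 60th percentile, with an offset of 16, with array weights, with scaling on hybridisation controls and in a fit of the 2 groups only. With an array left out the count was 0 to 2: it was 0 without short-day array 3 and 2 without long-day array 3. In ft-1 against Ler long-day seed the count of 0 became 4 with array weights and 2 with the poly-A covariate, and stayed at 0 with any array left out. In ft-1 against short-day seed it became 6 with array weights, and 1 without ft-1 array 2 (246880_s_at, adjusted p = 0.027), so 0 to 1 over the arrays left out. How many of all probe sets passed under these settings was not counted, so the shifts are not shown to be particular to the members. The cause of these shifts was not tested. With the replicate block the counts were 1, 0 and 0, as without it, and the block changed no call of a member.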
